A study of Homo sapiens with 8 samples.

Results

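The genes described here are 36 named genes of the short arm of human chromosome 18, taken from a table of 58870 gene rows. They were chosen by symbol, as genes between about 0.1 and 12.4 Mb (GRCh38) that earlier work on these same data had seen shift downward together, so the difference between the groups was itself what chose them and is described here without a test. All 36 symbols were found. Of these, 29 had enough counts to enter the fit across genes and 7 did not. The working description, that the genes were lower together, held for most but not all of them: 24 of the 29 had a log2 fold change below 0 and 5 had one above it. The measurements came from the cell line Panc 10.05, which was established from a human pancreatic ductal adenocarcinoma, in 4 control libraries and 4 libraries of cells carrying an ELAPOR1 transgene. ELAPOR1 is an endosome and lysosome associated membrane protein, and the labels call its libraries those of an ELAPOR1 transgene and the others control. The promoter of the transgene, the vector in the control cells, whether a clone or a pool was used, and the length of culture are not given in the sources used here, and neither is whether replicates were separate cultures. P-values below therefore measure only the spread between these libraries, which may be technical.

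The short arm of chromosome 18 carries genes of many unrelated pathways rather than a single gene family. Among them are subunits of the contractile, membrane-remodelling, kinetochore and mRNA export machineries, small GTPases that steer endosomes, the thymidylate synthase that makes a DNA precursor, and repressors that restrain TGF-beta and other signals. Several work only in a complex whose other subunits are encoded on other chromosomes, and several have close relatives elsewhere in the genome. Both kinds of gene are set beside them below.

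The promoters of 4 of these genes are shown first because they differ in base composition and fall on both sides of the comparison. MTCL1 and ZBTB14 were lower in the ELAPOR1 libraries and SMCHD1 and TUBB6 were not. Each line gives the 250 bases before the annotated start of the gene, 5′ to 3′ on the gene's own strand, from RefSeq on GRCh38.p14, with every CpG dinucleotide in capitals. MTCL1 lies at chr18:8705306-8705555 on the plus strand, ZBTB14 at chr18:5297054-5297303 on the minus strand, SMCHD1 at chr18:2655476-2655725 on the plus strand and TUBB6 at chr18:12307419-12307668 on the plus strand. No GENCODE exon overlapped any of these 4 stretches.
MTCL1: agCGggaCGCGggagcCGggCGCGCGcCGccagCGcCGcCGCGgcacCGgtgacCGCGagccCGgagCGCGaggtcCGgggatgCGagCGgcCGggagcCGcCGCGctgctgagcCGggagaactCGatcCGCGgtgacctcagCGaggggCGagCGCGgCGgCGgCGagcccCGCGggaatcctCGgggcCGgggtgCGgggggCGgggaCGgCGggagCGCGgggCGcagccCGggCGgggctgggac
ZBTB14: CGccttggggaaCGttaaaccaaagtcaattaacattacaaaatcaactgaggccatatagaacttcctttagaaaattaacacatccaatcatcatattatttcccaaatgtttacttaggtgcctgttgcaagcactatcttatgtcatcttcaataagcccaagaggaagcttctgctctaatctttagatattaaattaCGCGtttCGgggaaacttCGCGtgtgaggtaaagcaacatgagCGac
SMCHD1: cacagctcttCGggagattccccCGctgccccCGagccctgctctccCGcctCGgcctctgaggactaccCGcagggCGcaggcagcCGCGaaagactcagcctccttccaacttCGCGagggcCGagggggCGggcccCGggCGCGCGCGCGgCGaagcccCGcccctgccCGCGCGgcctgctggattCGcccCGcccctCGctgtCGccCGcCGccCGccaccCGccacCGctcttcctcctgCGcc
TUBB6: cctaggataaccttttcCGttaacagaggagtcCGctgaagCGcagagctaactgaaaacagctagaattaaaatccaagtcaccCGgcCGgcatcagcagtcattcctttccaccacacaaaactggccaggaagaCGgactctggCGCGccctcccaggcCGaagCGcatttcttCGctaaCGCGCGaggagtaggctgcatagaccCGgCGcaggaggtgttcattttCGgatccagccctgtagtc
The MTCL1 stretch holds 49 CpGs and the SMCHD1 stretch 34, against 8 for ZBTB14 and 17 for TUBB6. On each side of the comparison, 1 of the 2 stretches shown was denser in CpGs than the other.

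Library depth was 16558600 to 18128757 estimated counts in the control group and 13765509 to 17258166 in the ELAPOR1 group, a difference that a two-sided exact permutation test did not separate (p = 0.143, n = 4 each). ELAPOR1, which the deposited table lists as KIAA1324 (ENSG00000116299.17), had 1, 1, 4 and 4 counts in the control libraries and 7006, 6422, 5910 and 7368 in the ELAPOR1 libraries, so the labels and the transgene matched in every library. All 5 epithelial markers were well detected (EPCAM, KRT8, KRT18, KRT19 and CDH1, summed CPM of 10840 to 11920 in control and 9877 to 10180 in ELAPOR1 libraries). CPM is counts per 1e6, over the unscaled library total for these marker sums and after TMM scaling for the genes below. Of the fibroblast markers, 2 of 5 had any count (2.80 to 4.25 and 2.72 to 3.21 CPM), with COL1A2, DCN and LUM at 0. Of the immune markers, 4 of 5 had any count (81.6 to 87.7 and 73.7 to 79.9 CPM), with CD3E at 0. Endothelial markers had any count for 3 of 4 (1.61 to 2.11 and 0.581 to 1.004 CPM), with CDH5 at 0. Only 1 fibroblast, 2 immune and 1 endothelial marker had over 10 counts in a library. Acinar and endocrine markers had counts for 1 of 4 each, at or below 0.247 CPM in every library, with PRSS1, CPA1, CELA3A, INS, SST and CHGA at 0. The epithelial, immune and endothelial sums were lower in every ELAPOR1 library than in every control library, and their part in the values below was not tested.

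Across the 29 tested genes, 20 were called lower in the ELAPOR1 libraries, 1 was called higher and 8 were not called, by edgeR's quasi-likelihood test at a Benjamini-Hochberg adjusted p under 0.05 over 13860 genes. The background is large: 22.1% of all tested genes were called lower, 22.6% were called higher, and 49.9% had a log2 fold change below 0. Because this contrast chose the genes, nothing is read from the difference between their counts and the background. Their median log2 fold change was -0.20, beside 0.0009 over all tested genes. In 15 of the 29 every ELAPOR1 library lay below every control library (19.3% of all tested genes did so), and in 2, USP14 and PPP4R1, every ELAPOR1 library lay above (20.0% of all tested genes). The differences were modest in size. Among the 26 genes that averaged 5 CPM or more they ran from a log2 fold change of -0.54 for CHMP1B to 0.097 for PPP4R1. In bulk RNA, fewer cells expressing a gene and less of its RNA per cell cannot be told apart.

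**Figure D1:**
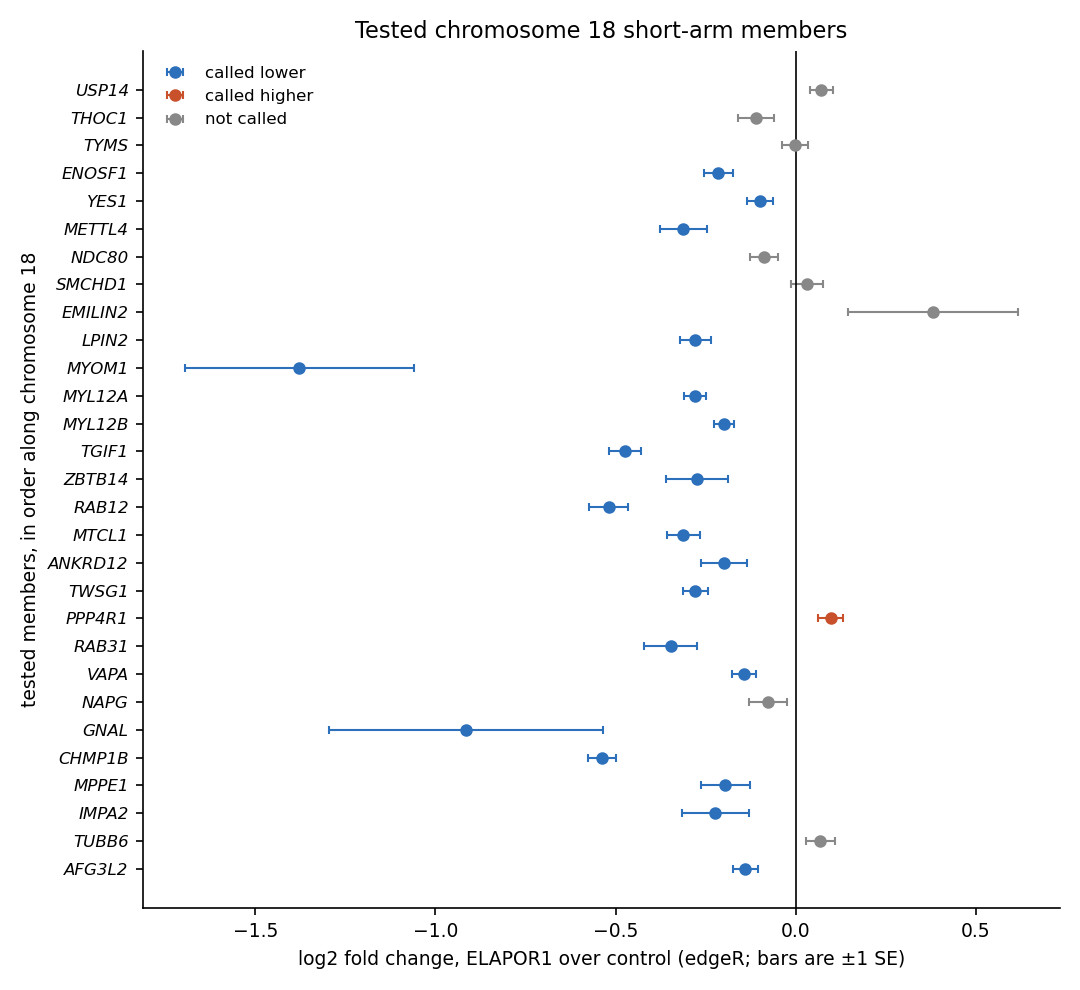
Log2 fold change of the 29 tested genes, ELAPOR1 over control (x axis, edgeR estimate with bars of 1 SE, n = 4 libraries per group), in their order along chromosome 18 (y axis), coloured by call. Most points lie between -0.54 and 0 and 5 lie above 0; the wide bars of EMILIN2, MYOM1 and GNAL belong to genes averaging under 5 CPM.

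Genes of membrane traffic held the 2 largest differences among those averaging 5 CPM or more, CHMP1B and RAB12. CHMP1B (ENSG00000255112.2, chr18:11851396-11854449, plus strand) encodes an ESCRT-III subunit, part of the filament that cuts membrane necks in endosomal sorting and at the end of cell division. It measured 141, 141, 146 and 134 CPM in the control libraries and 92.4, 100, 97.8 and 97.2 CPM in the ELAPOR1 libraries. Its log2 fold change was -0.54 ± 0.038 (SE), a level 31.1% lower, and the groups were far apart, with the lowest control library well above the highest ELAPOR1 library. RAB12 (ENSG00000206418.4, chr18:8609437-8639382, plus strand) encodes a small GTPase that directs cargo from recycling endosomes to lysosomes. RAB12 measured 54.4, 55.1, 53.6 and 54.2 CPM in the control libraries and 36.0, 42.3, 35.8 and 37.5 CPM in the ELAPOR1 libraries, a log2 fold change of -0.52 ± 0.054 and 30.2% lower. The control libraries were nearly equal to each other, and ELAPOR1 replicate 2 was nearer to them than the other ELAPOR1 libraries without reaching them. RAB31 (ENSG00000168461.13, chr18:9708165-9862551, plus strand) encodes a GTPase of the trans-Golgi network and early endosomes. Its values were 28.6, 22.9, 26.4 and 26.0 CPM in the control libraries and 19.1, 20.9, 20.4 and 21.2 CPM in the ELAPOR1 libraries, a log2 fold change of -0.35 ± 0.073. Control replicate 2 came close to the ELAPOR1 libraries, but the groups did not overlap.

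VAPA encodes an endoplasmic reticulum protein that tethers that membrane to other organelles through lipid-transfer proteins. It was 251 ± 9.65 CPM in control and 227 ± 5.94 CPM in ELAPOR1 libraries (SD, n = 4 each, as for every mean below), a log2 fold change of -0.14 ± 0.033, with no overlap between groups. NAPG, the gamma form of the SNAP adaptor that lets NSF take spent SNARE complexes apart, was 44.8 ± 2.51 CPM in control and 42.5 ± 0.420 CPM in ELAPOR1 libraries, with a log2 fold change of -0.076 ± 0.053, overlapping groups and no call. Membrane traffic thus held 4 genes called lower and 1 not called, beside 22.1% of all tested genes called lower.

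Partners and relatives of these gene products, encoded on other chromosomes, moved in both directions. Only 4 ESCRT-III partners of CHMP1B were listed, and all 4 rose, by edgeR's quasi-likelihood test with adjusted p-values over all genes. They lie on chromosomes 16 and 2, whose medians are given below, and do not stand for the whole of ESCRT-III. VPS4B, a relative of VPS4A on the long arm of chromosome 18, was not listed. It was 92.7 ± 5.27 CPM in control and 91.55 ± 5.86 CPM in ELAPOR1 libraries, with overlapping groups and no call. The AAA ATPase VPS4A, which disassembles the filament, rose from 107 ± 6.95 to 139.6 ± 4.85 CPM (log2 fold change 0.38 ± 0.041, adjusted p = 1.71e-09). IST1, SPAST and STAMBP rose by log2 fold changes of 0.14, 0.27 and 0.17, with no overlap between the groups for any of the 4. CHMP1A, the close relative of CHMP1B, also rose, from 125.2 ± 2.50 to 155 ± 3.89 CPM (0.31 ± 0.034, edgeR adjusted p = 3.31e-09), so that the 2 copies of this subunit moved in opposite directions in the same libraries. Of the SNARE disassembly partners, the ATPase NSF rose from 29.2 ± 1.37 to 39.2 ± 1.94 CPM (0.42 ± 0.059, edgeR adjusted p = 4.13e-07) and the alpha adaptor NAPA rose by 0.18, while NAPB was at -0.019 and not called. Among the relatives of RAB12, RAB8A and RAB10 rose by 0.22 and 0.19 and RAB13 fell, with a log2 fold change of -0.19. Among those of RAB31, RAB5C rose by 0.29, RAB5B fell with -0.20, and RAB5A and RAB22A were not called.
VAPB, the relative of VAPA, measured 115 ± 2.53 CPM in control and 119 ± 1.77 CPM in ELAPOR1 libraries and was not called (0.055 ± 0.036, edgeR adjusted p = 0.214). Of 4 lipid-transfer partners of VAPA, PITPNM1 fell from 35.6 ± 0.685 to 29.6 ± 0.919 CPM (-0.26 ± 0.058, edgeR adjusted p = 0.000293). OSBP, STARD3 and the ceramide transporter listed as COL4A3BP had log2 fold changes of -0.031, -0.073 and -0.058 and were not called.

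Cytoskeletal genes were split. MYL12A (ENSG00000101608.12, chr18:3247481-3256236, plus strand) and MYL12B (ENSG00000118680.13, chr18:3261479-3278431, plus strand) encode the near-identical regulatory light chains whose phosphorylation switches on non-muscle myosin II. MYL12A measured 442, 451, 457 and 484 CPM in the control libraries and 385, 381, 380.4 and 363 CPM in the ELAPOR1 libraries. MYL12B measured 679, 708, 701 and 732 CPM in the control libraries and 627, 614, 606 and 608 CPM in the ELAPOR1 libraries. For both genes each ELAPOR1 library lay below each control library, with log2 fold changes of -0.28 ± 0.031 and -0.20 ± 0.028. Reads from such similar genes can be divided between them in counting, so their sum was taken too. The pair summed to 1163 ± 39.3 CPM in control and 991 ± 17.0 CPM in ELAPOR1 libraries, a log2 ratio of -0.23. MTCL1 (ENSG00000168502.17, chr18:8705661-8832778, plus strand) encodes a protein that crosslinks and stabilises microtubules. Its values were 106, 107, 107 and 97.4 CPM in the control libraries and 77.5, 91.3, 85.1 and 83.1 CPM in the ELAPOR1 libraries, with a log2 fold change of -0.31 ± 0.045 and no overlap. Control replicate 4 was the lowest of its group and ELAPOR1 replicate 2 the highest of its own.

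TUBB6 (ENSG00000176014.12, chr18:12307669-12344320, plus strand), a beta-tubulin, was among the genes that were not lower, at 101, 98.8, 108 and 107 CPM in the control libraries and 113, 112, 106 and 104 CPM in the ELAPOR1 libraries. The groups overlapped and the log2 fold change of 0.068 ± 0.040 was not called, although it was called higher once library trends with GC content and transcript length were removed. MYOM1 encodes myomesin, a protein of the sarcomere M band of muscle, and was near the floor of detection here at 1.75 ± 0.219 CPM in control and 0.663 ± 0.281 CPM in ELAPOR1 libraries. Its log2 fold change of -1.38 ± 0.32 was called lower with no overlap, and its SE was several times that of the well-expressed genes.

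Partners of the myosin light chains on other chromosomes moved in both directions. MYH9, a non-muscle myosin II heavy chain, rose from 799.8 ± 24.1 to 1022 ± 26.6 CPM (0.35 ± 0.028, edgeR adjusted p = 1.81e-12). The heavy chain MYH14 fell from 121 ± 3.98 to 104 ± 1.16 CPM (-0.22 ± 0.037, edgeR adjusted p = 5.86e-06). The myosin light chain kinase MYLK fell from 7.69 ± 0.659 to 5.88 ± 0.921 CPM (-0.38 ± 0.13, edgeR adjusted p = 0.0149). The MYLK call ended without control replicate 3 or without ELAPOR1 replicate 3 or 4, at adjusted p-values of 0.0539 to 0.0617. MYL6, MYH10, PPP1R12A and PPP1CB had log2 fold changes of 0.071, 0.075, 0.078 and 0.015 and were not called. The light chain relative MYL9 was at 0.077 and not called.
The beta-tubulin family of TUBB6 rose in all 5 of the relatives that could be tested, by edgeR's quasi-likelihood test. TUBB3 rose from 19.3 ± 0.795 to 44.1 ± 2.72 CPM (1.19 ± 0.064, edgeR adjusted p = 7.31e-17). TUBB2A rose from 11.2 ± 1.11 to 20.1 ± 1.504 CPM (0.85 ± 0.087, edgeR adjusted p = 7.29e-10). TUBB2B rose from 0.645 ± 0.198 to 1.85 ± 0.756 CPM (1.502 ± 0.34, edgeR adjusted p = 0.000425), at a low level. TUBB and TUBB4B rose by 0.28 and 0.20, and TUBB4A had too few counts to test. Beta-tubulin genes are similar in sequence, and how reads shared among them were divided cannot be seen in the table.

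**Figure D2:**
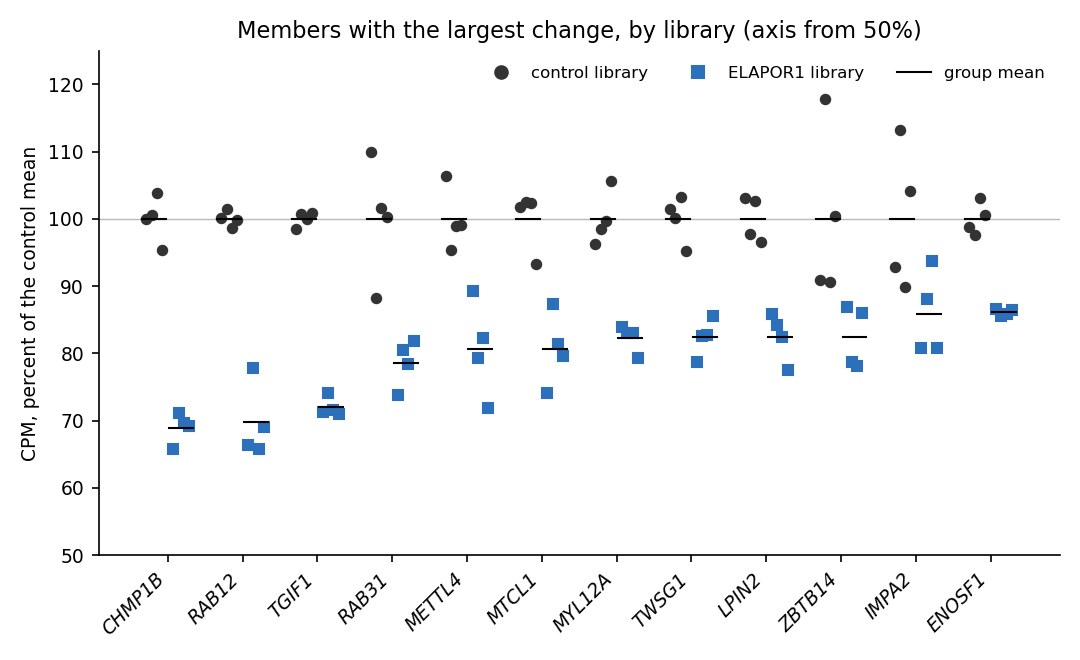
CPM of the 12 genes averaging 5 CPM or more with the largest change, each library as a percent of that gene's control mean (y axis, starting at 50%), with circles for the 4 control libraries, squares for the 4 ELAPOR1 libraries and bars for group means. The ELAPOR1 squares lie below every control circle for 11 of the 12 genes, and overlap them for IMPA2.

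Genes of transcription, chromatin and signalling were also mixed. TGIF1 (ENSG00000177426.20, chr18:3411608-3459978, plus strand) encodes a homeodomain repressor that limits TGF-beta signals by binding SMAD proteins. It measured 67.1, 68.6, 68.1 and 68.7 CPM in the control libraries and 48.6, 50.5, 48.7 and 48.4 CPM in the ELAPOR1 libraries. The spread within each group was small, the groups were wide apart, and the log2 fold change was -0.47 ± 0.045, 28.0% lower. TWSG1 (ENSG00000128791.12, chr18:9334767-9402420, plus strand) encodes a secreted protein that binds bone morphogenetic proteins together with chordin. TWSG1 measured 175, 173, 178 and 164 CPM in the control libraries and 136, 142, 143 and 148 CPM in the ELAPOR1 libraries, a log2 fold change of -0.28 ± 0.035 with no overlap. ZBTB14 (ENSG00000198081.11, chr18:5289019-5297053, minus strand), a zinc-finger transcription factor, was at 16.9, 21.8, 16.8 and 18.6 CPM in the control libraries and 16.1, 14.6, 14.5 and 15.9 CPM in the ELAPOR1 libraries. The lowest control value lay only slightly above the highest ELAPOR1 value, the log2 fold change was -0.28 ± 0.086, and its call ended without control replicate 2, the highest library (-0.19).
METTL4 (ENSG00000101574.15, chr18:2537525-2571509, minus strand) encodes an adenine methyltransferase of RNA. Its values were 36.5, 32.8, 34.0 and 34.0 CPM in the control libraries and 30.6, 27.2, 28.2 and 24.7 CPM in the ELAPOR1 libraries, a log2 fold change of -0.31 ± 0.065 with no overlap.

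ANKRD12, a nuclear ankyrin-repeat protein that binds coregulators, was 90.5 ± 10.4 CPM in control and 78.8 ± 2.13 CPM in ELAPOR1 libraries, with overlapping groups and a log2 fold change of -0.20 ± 0.064, and its call ended without ELAPOR1 replicate 2 (-0.18). YES1, a kinase of the SRC family, was 208 ± 11.9 CPM in control and 194 ± 6.63 CPM in ELAPOR1 libraries, again with overlap, and its log2 fold change of -0.10 ± 0.036 was called in 12 of 18 alternative fits (-0.13 to -0.067). The call ended without control replicate 1 or 2 or ELAPOR1 replicate 1 or 2, and with the replicate block or total count scaling. GNAL, the olfactory G protein alpha subunit, had 4 to 24 counts per library. It was 1.16 ± 0.201 CPM in control and 0.621 ± 0.398 CPM in ELAPOR1 libraries, a log2 fold change of -0.92 ± 0.38, and its call held in 9 of 17 alternative fits (-1.22 to -0.66). The call ended without control replicate 1, 2 or 3 or ELAPOR1 replicate 2 or 4, and with DESeq2, no filter or total count scaling. CHMP1B lies inside the span of GNAL on the same strand, over 3054 bases, and whether their exons overlap was not examined. Reads divided between genes can leave fractional counts, and the counts of both genes were whole numbers in every library.

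SMCHD1 and PPP4R1 were not lower. SMCHD1 (ENSG00000101596.15, chr18:2655738-2805017, plus strand) encodes a chromatin protein that keeps the inactive X chromosome and the clustered protocadherin genes silent. It measured 156, 143, 137 and 128 CPM in the control libraries and 138, 145, 150.5 and 144 CPM in the ELAPOR1 libraries. The groups overlapped and the log2 fold change was 0.031 ± 0.045, with a sign that turned below 0 in 3 of 18 alternative fits. PPP4R1 (ENSG00000154845.15, chr18:9546791-9615240, minus strand), a regulatory subunit of protein phosphatase 4, was the single gene called higher. PPP4R1 measured 148, 143, 145 and 145 CPM in the control libraries and 152, 152, 164 and 154 CPM in the ELAPOR1 libraries, a log2 fold change of 0.10 ± 0.035. Every ELAPOR1 library lay above every control library, ELAPOR1 replicate 3 most, and the call ended without that library, without control replicate 2, and with GC and length trends removed (0.065 to 0.12 over 18 alternative fits).

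Partners of this set were mostly higher or not called. The catalytic subunit of protein phosphatase 4, PPP4C, rose from 80.0 ± 3.89 to 89.7 ± 4.87 CPM (0.17 ± 0.044, edgeR adjusted p = 0.00269), and PPP4R3A and PPP4R3B rose by 0.20 and 0.11, while PPP4R2 and the scarce PPP4R4 were not called. Of 4 corepressors and SMAD partners of TGIF1, HDAC1 rose by 0.14, and SMAD3, SIN3A and CTBP1 were not called. TGIF2, the relative of TGIF1, fell from 25.5 ± 0.406 to 21.98 ± 1.60 CPM (-0.22 ± 0.068, edgeR adjusted p = 0.00915). METTL3 and METTL14, relatives of METTL4 that together write N6-methyladenosine in mRNA, had log2 fold changes of -0.11 and -0.25. Both were called lower, and the METTL3 call ended without control replicate 2 or 4 or ELAPOR1 replicate 2 or 4 (edgeR adjusted p 0.0587 to 0.113), and also with the replicate block, no filter, total count scaling or DESeq2 (0.0546 to 0.0936). BMP4, BMP7 and CHRD, the ligands and chordin that work with TWSG1, had too few counts to test. GNAS, the widely expressed relative of GNAL, fell from 596 ± 18.3 to 472 ± 11.1 CPM (-0.33 ± 0.029, edgeR adjusted p = 1.6e-11). Of the YES1 relatives, SRC and LYN were not called and FYN was lower at -0.21, a call that ended without control replicate 1 or 2 or ELAPOR1 replicate 1 or 3 (edgeR adjusted p 0.0528 to 0.0778) and with DESeq2 (0.0506). ANKRD11, related to ANKRD12, rose by 0.12, and SOGA1, related to MTCL1, rose by 0.17.
Because SMCHD1 acts on them, the clustered protocadherins were counted as well. Of 53 such genes 15 were tested, 3 of them averaging 5 CPM or more, with a median log2 fold change of -0.23. By edgeR's quasi-likelihood test 3 (20.0%) were called lower and 0 higher, beside 22.1% and 22.6% of all tested genes. Those called were PCDHGB2 (-0.30 ± 0.094, edgeR adjusted p = 0.00955), PCDHGB5 (-0.23 ± 0.095, 0.0452) and PCDHGB6 (-1.11 ± 0.38, 0.0170). PCDHGB6 averaged 0.839 CPM, and the groups overlapped for PCDHGB5 and PCDHGB6. The count called fell to 1 without control replicate 3, and likewise without ELAPOR1 replicate 1. Genes of the gamma cluster share their 3′ exons, so their counts are uncertain.

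Metabolic genes held 4 that were called lower and 1 that was level, beside 22.1% of all tested genes called lower. LPIN2 (ENSG00000101577.9, chr18:2916994-3013315, minus strand) encodes a phosphatidate phosphatase, which makes the diacylglycerol used for triglyceride and phospholipid synthesis. It measured 97.0, 91.9, 96.5 and 90.8 CPM in the control libraries and 80.8, 79.2, 77.5 and 72.8 CPM in the ELAPOR1 libraries, a log2 fold change of -0.28 ± 0.042 with no overlap. IMPA2 (ENSG00000141401.12, chr18:11981025-12030883, plus strand), an inositol monophosphatase, was at 13.2, 16.2, 12.8 and 14.9 CPM in the control libraries and 11.5, 12.6, 13.4 and 11.5 CPM in the ELAPOR1 libraries. ELAPOR1 replicate 3 lay within the control range, and the log2 fold change of -0.22 ± 0.093 was called in 6 of 18 alternative fits (-0.27 to -0.14). The call ended without control replicate 2 or 4 or ELAPOR1 replicate 1, 2 or 4. It also ended with DESeq2, limma-voom, no filter, total count scaling and the replicate block. With GC and length trends removed it ended too (-0.14), with or without the block. MPPE1, a phosphoesterase that remodels the lipid anchors of cell surface proteins, was 29.5 ± 2.19 CPM in control and 25.8 ± 2.12 CPM in ELAPOR1 libraries, with a log2 fold change of -0.20 ± 0.069. Its groups overlapped through ELAPOR1 replicate 2, and its call ended without control replicate 4 or ELAPOR1 replicate 1, 3 or 4 (-0.25 to -0.14 over 18 alternative fits).

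TYMS and ENOSF1 lie tail to tail on opposite strands and share 3255 bases. TYMS (ENSG00000176890.16, chr18:657604-673578, plus strand) encodes thymidylate synthase, which makes the thymidine nucleotide of DNA and is the target of fluorouracil. ENOSF1 (ENSG00000132199.20, chr18:670324-712676, minus strand) encodes a mitochondrial sugar-acid dehydratase. TYMS measured 123, 132, 125.2 and 133 CPM in the control libraries and 131, 128, 124 and 129.6 CPM in the ELAPOR1 libraries, with overlapping groups and a log2 fold change of -0.001 ± 0.036, whose sign was below 0 in 11 of 18 alternative fits. ENOSF1 measured 84.5, 83.5, 88.3 and 86.0 CPM in the control libraries and 74.2, 73.2, 73.4 and 74.0 CPM in the ELAPOR1 libraries, with no overlap and a log2 fold change of -0.22 ± 0.040. Whether the counting used strand is not given in the sources used here, and to which gene reads of the shared bases went was not tested. The counts of both genes were whole numbers in every library, without the fractions that divided reads can leave. Their sum was 214 ± 4.97 CPM in control and 202 ± 3.03 CPM in ELAPOR1 libraries, a log2 ratio of -0.084.
Around TYMS, the thymidylate cycle on other chromosomes held genes that rose and genes that fell. Thymidine kinase TK1 rose from 151 ± 7.09 to 187 ± 2.69 CPM (0.31 ± 0.035, edgeR adjusted p = 3.73e-09), and thymidylate kinase DTYMK rose by 0.26. The serine hydroxymethyltransferases, which load one-carbon units onto folate, fell: SHMT2 from 171 ± 7.97 to 134 ± 4.69 CPM (-0.35 ± 0.037, edgeR adjusted p = 9.46e-10), SHMT1 from 55.6 ± 1.53 to 46.3 ± 1.82 CPM (-0.27 ± 0.049, edgeR adjusted p = 3.19e-05). DUT was at -0.019 and not called. The lipin relatives LPIN1 and LPIN3 and the phosphatase complex that activates lipins, CTDNEP1 with CNEP1R1, were not called. IMPA1, ISYNA1 and CDIPT of inositol metabolism and PGAP1, TMED2 and TMED10 of anchor remodelling were not called either.

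Genes of protein and RNA handling and of the spindle showed small differences. USP14 (ENSG00000101557.15, chr18:158383-214629, plus strand), the first gene of the stretch, encodes a deubiquitinase that trims ubiquitin chains on the proteasome. It measured 227, 223, 229 and 219.7 CPM in the control libraries and 236, 232, 244 and 232 CPM in the ELAPOR1 libraries. The log2 fold change was 0.071 ± 0.031, every ELAPOR1 library was above every control library, and it was not called. THOC1, a subunit of the THO complex that couples transcription to mRNA export, overlaps USP14 by 110 bases on the opposite strand and was 53.0 ± 2.38 CPM in control and 49.1 ± 1.77 CPM in ELAPOR1 libraries. Its log2 fold change of -0.11 ± 0.050 was not called. NDC80, the kinetochore protein that grips spindle microtubules, was 119.8 ± 5.14 CPM in control and 113 ± 4.84 CPM in ELAPOR1 libraries and also not called (-0.089 ± 0.039). NDC80 and METTL4 start head to head with 1 base between them, and METTL4 was lower without overlap while NDC80 overlapped. AFG3L2, a subunit of the m-AAA protease of the mitochondrial inner membrane, was 164 ± 4.79 CPM in control and 149 ± 3.69 CPM in ELAPOR1 libraries. Its log2 fold change was -0.14 ± 0.034 with no overlap, beside 0.068 for TUBB6, with which it shares 15377 bases on the opposite strand.

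The proteasome partners of USP14 rose in 3 of 3 cases: UCHL5, PSMD14 and PSMD2 by 0.17, 0.18 and 0.19. In the kinetochore network around NDC80, 1 of 8 rose, KNL1 from 129 ± 14.8 to 156 ± 4.98 CPM (0.27 ± 0.075, edgeR adjusted p = 0.0166), and 7 were not called. The direct NDC80 complex partners NUF2, SPC24 and SPC25 had log2 fold changes of -0.033, -0.052 and 0.13, and DSN1, MIS12, NSL1 and PMF1 ran from -0.073 to 0.064. Of 7 export partners of THOC1, THOC2 rose from 99.1 ± 2.51 to 109.5 ± 4.08 CPM (0.14 ± 0.039, edgeR adjusted p = 0.00272). ALYREF was higher at 0.12 ± 0.043 (edgeR adjusted p = 0.0244) and THOC7 lower at -0.15 ± 0.058 (edgeR adjusted p = 0.0328), both with overlapping groups. The ALYREF call ended without control replicate 1 or 3 or ELAPOR1 replicate 1, 3 or 4 (adjusted p 0.0558 to 0.111). The THOC7 call ended without control replicate 2, 3 or 4 or ELAPOR1 replicate 1, 3 or 4 (adjusted p 0.0571 to 0.147). It also ended with GC and length trends removed, where the log2 fold change of THOC7 was -0.068 (adjusted p = 0.313, and 0.309 with the replicate block as well), with total count scaling (0.0665) and with DESeq2 (0.0561). THOC3, THOC5, THOC6 and DDX39B had log2 fold changes of 0.039, 0.005, -0.10 and 0.004 and were not called.
Beside AFG3L2, its m-AAA partner SPG7 rose from 138 ± 5.15 to 157 ± 3.27 CPM (0.19 ± 0.035, edgeR adjusted p = 3.44e-05). The prohibitins, which form rings around that protease, moved apart: PHB rose from 117 ± 4.78 to 178 ± 5.92 CPM (0.61 ± 0.036, edgeR adjusted p = 1.54e-15) and PHB2 fell from 316 ± 18.1 to 256 ± 11.3 CPM (-0.30 ± 0.037, edgeR adjusted p = 1.44e-07). MAIP1 was higher at 0.19, a call that ended without control replicate 1 or 2 or ELAPOR1 replicate 3 or 4 (edgeR adjusted p 0.0543 to 0.106).

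Genes of the extracellular matrix, cell surface and nervous system were largely without counts. COLEC12 (a scavenger receptor), DLGAP1 (a scaffold of synapses), EPB41L3 (a linker of membrane and cytoskeleton), ARHGAP28, PTPRM (a receptor phosphatase of cell contacts) and PIEZO2 (a touch-sensing channel) had 0 counts in all 8 libraries. LAMA1, a laminin chain of basement membranes, had 3, 3, 4 and 3 counts in the control libraries and 10, 19, 3 and 6 in the ELAPOR1 libraries. These counts were too few to test, and 1 ELAPOR1 library stood at the control level. EMILIN2, an elastic fibre glycoprotein, was the remaining gene that was not lower, at 2.11, 2.06, 1.32 and 1.65 CPM in the control libraries and 2.15, 2.60, 2.66 and 1.96 CPM in the ELAPOR1 libraries. The groups overlapped and its log2 fold change of 0.38 ± 0.24 was not called.
Several relatives of these genes were expressed. PIEZO1 rose from 289.5 ± 3.49 to 355 ± 5.34 CPM (0.29 ± 0.029, edgeR adjusted p = 1.95e-10), and ARHGAP18 rose from 62.6 ± 2.71 to 94.3 ± 3.69 CPM (0.59 ± 0.044, edgeR adjusted p = 3.21e-13). The laminin chain LAMA5 fell from 387 ± 5.70 to 301 ± 4.21 CPM (-0.36 ± 0.028, edgeR adjusted p = 1.5e-12), as did its partner chain LAMB1, from 419 ± 15.4 to 337 ± 6.68 CPM (-0.32 ± 0.030, edgeR adjusted p = 1.53e-10), while LAMC1 and DAG1 were not called. SCARA3, a scavenger receptor related to COLEC12, fell from 3.06 ± 0.300 to 0.169 ± 0.135 CPM (-4.19 ± 0.39, edgeR adjusted p = 8e-11). MYOM3, related to MYOM1, was lower at -0.81 ± 0.29 (edgeR adjusted p = 0.0220), and that call ended without control replicate 2 (0.0624) or ELAPOR1 replicate 4 (0.119). DLGAP4 fell with -0.17, and CDH1, whose adhesions PTPRM acts on, rose by 0.11.

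Over the whole list of partners, 72 of 76 were tested, with 25 called higher, 8 lower and 39 not called, and a median log2 fold change of 0.058. Of the paralogs, 44 of 54 were tested, with 16 higher, 11 lower and 17 not called, and a median of 0.042. Both medians lie beside 0.0009 for all tested genes, of which 44.7% were called. SPG7, NAPA and NAPB stand in both lists. Several of the risers named above (VPS4A, IST1, CHMP1A, SPG7, TUBB3, PPP4C, PIEZO1, ANKRD11 and CDH1) lie on chromosome 16. The median of that chromosome's genes averaging 5 CPM or more was 0.14, the highest of the autosomes. Other risers, among them SPAST, STAMBP, PSMD14, DTYMK, MAIP1 and PPP4R3B, lie on chromosome 2. Its median was 0.10, and 30.5% of its genes were below 0, the lowest share of the autosomes. PHB, NSF, TK1 and ALYREF lie on chromosome 17, whose median was 0.045. The part of these chromosomes in those values was not tested.

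**Figure D3:**
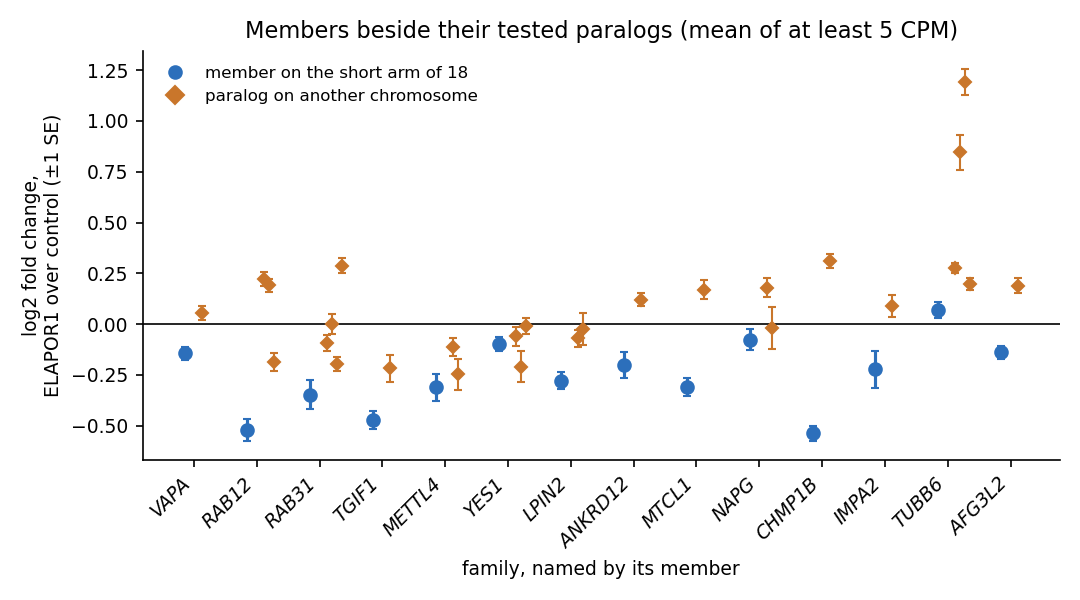
Log2 fold change (y axis, edgeR estimate with bars of 1 SE, n = 4 libraries per group) of genes on the short arm of chromosome 18 (circles) and of their tested paralogs on other chromosomes (diamonds), by family (x axis), for genes averaging 5 CPM or more. TUBB6, at 0.068, is the circle above 0, and its relatives TUBB2A and TUBB3 reach 0.85 and 1.19.

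Position along the arm was described next. The 36 genes run from USP14, which starts at 158383, to AFG3L2, which ends at 12377314. Of the 10 tested genes from USP14 to LPIN2, 4 were called lower and 6 not called, with a median log2 fold change of -0.094. Of the 10 from MYOM1 to PPP4R1, 9 were called lower and 1 higher, with a median of -0.28. Of the 9 from RAB31 to AFG3L2, 7 were called lower and 2 not called, with a median of -0.20. Of all tested genes 22.1% were called lower and 22.6% higher. This contrast chose the listed genes, so nothing about position is read from these counts. Genes that were not lower lay among genes that were: PPP4R1 between TWSG1 and RAB31, and TUBB6 overlapping AFG3L2.

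The stretch holds 224 other gene rows, of which 12 were tested, with a median log2 fold change of -0.27. Of the 12, 7 were called lower and 0 higher, beside 22.1% and 22.6% of all tested genes. They were not chosen by name but share the stretch that was, so they are described without a test. NDUFV2, a subunit of respiratory complex I, was 160.0 ± 6.51 CPM in control and 129.6 ± 3.77 CPM in ELAPOR1 libraries (-0.30 ± 0.036). The antisense transcripts DLGAP1-AS1 and DLGAP1-AS2 had log2 fold changes of -0.55 and -0.90, the latter at 8.70 ± 0.817 CPM in control and 4.67 ± 0.704 CPM in ELAPOR1 libraries, while DLGAP1 itself had no counts. L3MBTL4, a chromatin reader, was at -0.24 and called in 9 of 18 alternative fits (-0.29 to -0.18), but not without control replicate 2, 3 or 4 or ELAPOR1 replicate 1, 3 or 4. Its call also ended with DESeq2, no filter or total count scaling. The ribosomal protein pseudogene RPL6P27 was called lower at -0.31, with overlapping groups. Its counts had a fractional part in every library, as dividing reads that match several genes can leave. LINC00667, a long noncoding RNA, was not called at 0.10. Just outside the first gene, ROCK1P1, a transcribed pseudogene, was 8.31 ± 1.03 CPM in control and 5.99 ± 1.15 CPM in ELAPOR1 libraries (-0.47 ± 0.13), beside 0.071 for USP14 just inside. The groups of ROCK1P1 overlapped, and its counts too had a fractional part in every library. Just past the last gene, PRELID3A was 6.02 ± 0.654 CPM in control and 5.66 ± 0.920 CPM in ELAPOR1 libraries (-0.093 ± 0.14), beside -0.14 for AFG3L2.

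The direction did not end at the last gene of the list. On the remaining short arm, up to the last tested gene ending at 14342524, all 15 tested genes had a log2 fold change below 0 (49.9% of all tested genes did so). Of these, 10 were called lower and 0 higher by edgeR's quasi-likelihood test, beside 22.1% and 22.6% of all tested genes. In 8 every ELAPOR1 library lay below every control library (19.3% of all tested genes), and the median was -0.18. This count was added after the data were seen. PTPN2, a tyrosine phosphatase that dampens cytokine signals, fell from 99.3 ± 2.11 to 77.0 ± 2.85 CPM (-0.37 ± 0.040, edgeR adjusted p = 2.83e-09). PSMG2, a chaperone of proteasome assembly, fell from 83.3 ± 1.39 to 66.2 ± 2.12 CPM (-0.33 ± 0.042, edgeR adjusted p = 5.7e-08). RNMT, the mRNA cap methyltransferase, fell from 154 ± 6.17 to 127 ± 4.73 CPM (-0.28 ± 0.037, edgeR adjusted p = 1.42e-07). The actin nucleator SPIRE1 fell from 105 ± 2.37 to 92.3 ± 1.94 CPM (-0.19 ± 0.038, edgeR adjusted p = 9.14e-05). PTPN2 and RNMT are named although they lie outside the rule for naming genes, and were chosen after their values were seen. CEP76 lies within the span of PSMG2 on the opposite strand, and the counts of both genes were whole numbers in every library. CEP76 was at -0.045, and neither it nor PRELID3A was called.

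On the long arm, whose first tested gene starts at 20946906, 78 of 133 tested genes were below 0 and 55 above. Of these 28 were called lower and 21 higher, beside 22.1% and 22.6% of all tested genes, and the median was -0.029. The share called lower, 21.1%, was close to that of all tested genes. Among genes averaging 5 CPM or more, the 45 short-arm genes had a median of -0.22, with 88.9% below 0, and the 107 long-arm genes a median of -0.027, with 57.9% below 0. The other 21 autosomes had medians from -0.070 to 0.14, with 30.5% to 62.8% of their genes below 0. The listed genes are 26 of those 45, so the short-arm figures contain the choice of genes and are a description.

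**Figure D4:**
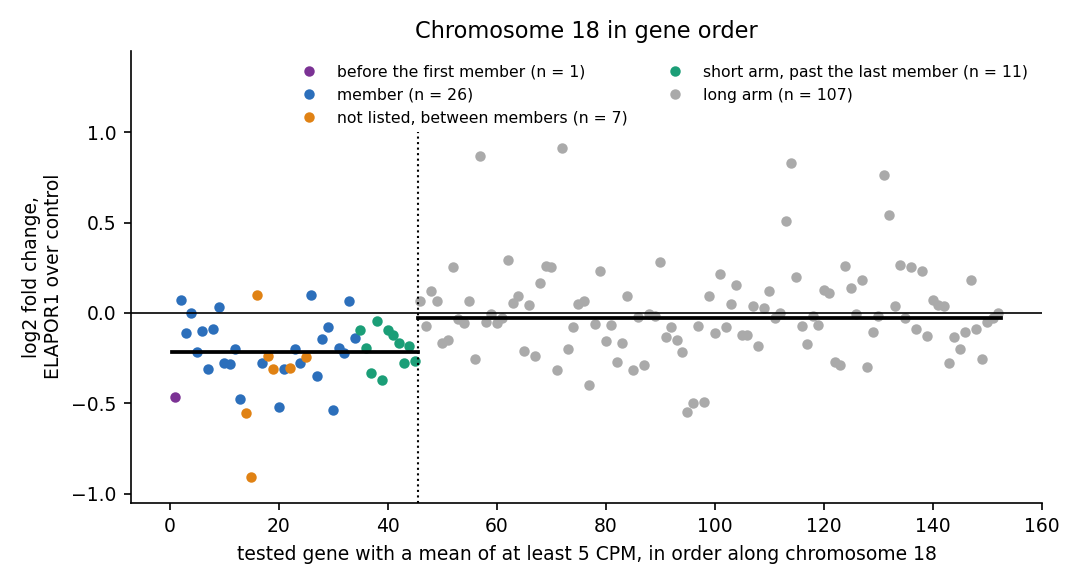
Log2 fold change, ELAPOR1 over control (y axis, edgeR estimate), of the 152 tested genes of chromosome 18 averaging 5 CPM or more, in order along the chromosome (x axis, rank). The dotted line parts the short from the long arm and the horizontal bars are the medians of the arms, -0.22 and -0.027.

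Library by library, the shift was even. For the 26 listed genes averaging 5 CPM or more, the median log2 difference from the control mean was 0.0021, -0.0032, -0.0016 and -0.0079 in the control libraries. It was -0.18, -0.19, -0.21 and -0.21 in the ELAPOR1 libraries, where 22, 22, 22 and 21 of the 26 genes lay below their control mean. Every ELAPOR1 library showed the shift, but these same libraries chose the genes, so this is a description. Each difference was taken from the control mean, so the control values centre near 0 by design. The 11 short-arm genes past the last listed one had medians of 0.032, 0.0052, -0.030 and -0.040 in the control libraries and -0.16, -0.18, -0.23 and -0.18 in the ELAPOR1 libraries. Long-arm genes had medians of -0.034 to 0.0021 in the ELAPOR1 libraries, within or near their control range of -0.022 to 0.027, and all 10703 genes had medians of -0.0003 to 0.0081 over the 8 libraries.

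**Figure D5:**
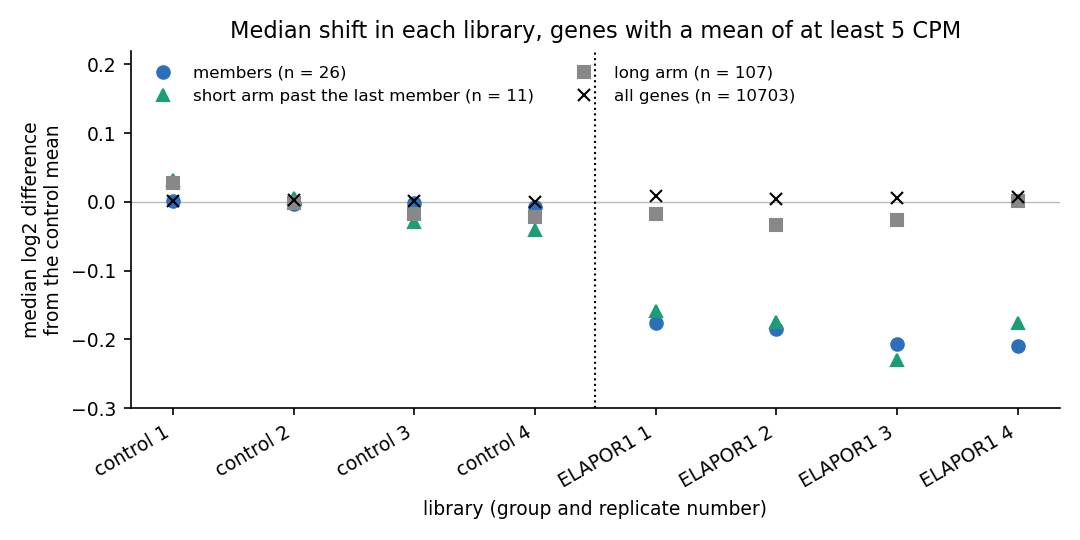
Median log2 difference from the control mean (y axis) in each of the 8 libraries (x axis), for 26 listed genes, 11 short-arm genes past the last of them, 107 long-arm genes and all 10703 genes averaging 5 CPM or more. In the 4 ELAPOR1 libraries both short-arm sets lie between -0.23 and -0.16, and the long-arm and whole-genome medians lie near 0.

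Properties of the genes were set beside the size of the change. Across the 26 genes averaging 5 CPM or more, the Spearman correlation with the log2 fold change was 0.34 for mean CPM, 0.099 for transcript length, -0.062 for transcript GC content and -0.14 for position. These are descriptions over genes that share the same libraries, and genes are not independent replicates. Of 19 tested genes on the plus strand 12 were called lower, with a median log2 fold change of -0.20. Of 10 on the minus strand 8 were called lower and 1 higher, with a median of -0.21. Beside these, 22.1% of all tested genes were called lower and 22.6% higher.

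Promoter windows of 300 bases, from 250 before to 50 after the start, were available in RefSeq for 33 of the 36 genes, all but RAB12, LAMA1 and IMPA2. Their median GC content was 72.0% and their median number of CpGs 34, beside 58.3% and 14 over all 27305 windows. The GC box GGGCGG, searched on both strands, was in 22 of the 33 (66.7%), beside 44.6% of all windows. The letters CCAAT, also on both strands, were in 7 of the 33 (21.2%), beside 35.7% of all windows. Each GC box contains a CpG, so these counts overlap with the number of CpGs. The 18 windows of genes called lower had a median GC content of 73.8% and held 3 to 59 CpGs, and 13 of them (72.2%) held a GC box. The 9 windows of genes not called or called higher had a median GC content of 65.7% and held 20 to 56 CpGs, and 6 of them (66.7%) held a GC box. The ranges of the 2 sets overlapped in part. The windows of MYOM1, LPIN2, TGIF1 and ZBTB14, all called lower, held 3, 8, 9 and 13 CpGs, fewer than any window of the other set. Above 20 CpGs both sets had windows, and whether the sets differ was not tested. A match to these letters is a description of the window only.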

How the data were processed

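RNA was sequenced from 8 libraries of Panc 10.05, 4 control and 4 with an ELAPOR1 transgene. The authors deposited 1 table of expected counts per gene, with no scaling between libraries. The submitters' processing notes name cutadapt, STAR, RSEM, DESeq2 and the build hg38; annotation release and strand setting are not given in the sources used here. RSEM divides reads that match several genes, which left 15.0% of nonzero entries with a fractional part (tolerance 1e-09). Coordinates, overlaps and lengths are those of GENCODE release 29 (GRCh38), in which 58597 of the 58870 gene identifiers matched once versions were dropped and 47420 matched with versions. Promoter windows are from RefSeq (GRCh38.p14).

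After rounding to integers, the fit across genes used edgeR 4.0.16 under R 4.3.3 (filterByExpr, TMM, robust quasi-likelihood test, two-sided, no covariate). P-values were adjusted by the Benjamini-Hochberg method over 13860 genes and called under 0.05. The SE is the size of the log2 fold change divided by the square root of F. The script was tested on simulated data. DESeq2 1.42.0, limma 3.58.1, other scalings and filters, GC and length offsets, a replicate block and each library left out were alternatives.

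The genes and lists were chosen with earlier results of these data known. Values in every library are given for the 12 tested genes averaging 5 CPM or more with the largest change, for MYL12A with MYL12B and TYMS with ENOSF1, and for tested genes that were not lower. Other genes of the list are given by mean and change. From the stretch, tested genes averaging 5 CPM or more are named, with the 3 past its end. From the partners and paralogs, the 3 largest called changes in each direction are named, with the partners of NDC80, THOC1, TYMS and MYL12A and the families of TUBB6 and VAPA; other partners and paralogs named were chosen after their values were seen. A few genes that this rule would name are not reported here.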

Additional observations from a re-analysis of the deposited data

Results flagged for a closer look

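Of 102 groups of 4 libraries examined for a library far from the others, 5 held one, where chance alone gives about 5.1 (1 in 20). MTCL1 in control replicate 4 was 97.4 CPM, below the other control libraries at 106 to 107 CPM and still above every ELAPOR1 library. AFG3L2 in control replicate 2 was 171 CPM, above the others at 161 to 162 CPM. TGIF1 in ELAPOR1 replicate 2 was 50.5 CPM, above the others at 48.4 to 48.7 CPM. MPPE1 in ELAPOR1 replicate 2 was 28.9 CPM, above the others at 24.6 to 24.9 CPM and within the control range. SPIRE1 in ELAPOR1 replicate 3 was 89.4 CPM, below the others at 93.2 to 93.3 CPM. What sets these libraries apart was not tested.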

How the results depend on the processing

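No called gene named above changed direction in any alternative run; ROCK1P1 and the single protocadherins were not followed through them. The count of listed genes called lower was 20, and ran from 17 with total count scaling to 21 with upper-quartile scaling, with 15 at an adjusted p under 0.01. Their median log2 fold change of -0.20 became -0.18 with total count scaling. With each library left out in turn it ran from -0.225 to -0.195, the lowest without control replicate 1, the count called lower from 17 to 20 and the count without overlap from 15 to 20. The median of the other genes of the stretch ran from -0.336 to -0.235 (6 to 7 called lower), the lowest again without control replicate 1. In the same fits all genes called ran from 5557 to 6316, partners from 29 to 35, paralogs from 23 to 28, clustered protocadherins from 1 to 4, the rest of chromosome 18 from 46 to 58 with a median of -0.064 to -0.041, and the ELAPOR1 log2 fold change from 11.15 to 11.75. At an adjusted p under 0.01, 37 genes on the rest of chromosome 18 were called in place of 59, and 1 protocadherin in place of 3. Short-arm genes past the last listed one fell from 10 called lower to 5 at that threshold. Listed genes called higher were 0 without control replicate 2, without ELAPOR1 replicate 3 and at 0.01. ELAPOR1 has no value with at least 10 counts in every library, since its control counts are lower.

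Same-numbered libraries did not deviate together (r from -0.11 to 0.036 over 10703 genes), and differently numbered ones had r from -0.093 to 0.106. These values are centred within groups of 4 and could miss a weak pairing, and the labels do not say whether the numbers pair the libraries. With the replicate block, 18 listed genes were called lower (median -0.20) and all genes called came to 5926; with the block and GC and length offsets, these were 19 and 6361 (median -0.21). No call of a listed gene other than YES1 and IMPA2 was lost with the block alone.

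Depth limits the low genes most: MYOM1, EMILIN2 and GNAL had means under 5 CPM, and their SE of 0.24 to 0.38 was several times that of the others. The small differences of USP14, THOC1, NDC80 and TUBB6, from -0.11 to 0.071 on the log2 scale, were not called but gained a call in some alternatives: USP14 with total count scaling and without control replicate 1, THOC1 without control replicate 1 or 2, NDC80 with upper-quartile scaling and without control replicate 1 or 4 or ELAPOR1 replicate 2, and TUBB6 with GC and length offsets, with and without the block. NAPG gained none.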
